A study of Mus musculus with 12 samples.

Results

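The inflammasome genes described here are 7 of the 23127 genes measured in whole mouse lung by bulk RNA sequencing. They were chosen by name as the sensors Nlrp3, Aim2 and Nlrc4, the adaptor Pycard, the inflammatory caspases Casp1 and Casp4, and the pore-forming effector Gsdmd. All 12 animals were C57BL6/J mice, 4 in each of 3 groups. The control mice were taken at 0 weeks. The treated mice received L-NAME, an inhibitor of nitric oxide synthases, at 0.5 g/L in the water together with a diet of 60% lipid, for 2 or for 5 weeks. The study asks about myeloid IL-1β and lung vessel remodelling in heart failure with preserved ejection fraction. A single-cell experiment of the same study was not analysed here. No untreated mice of a later time were among these groups, so treatment and time on study cannot be told apart. The labels give no age, sex or batch, and each library carries its own mouse number.

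Inflammasomes are protein complexes that form in the cytosol when a sensor meets a sign of infection or cell damage. The sensor recruits the adaptor ASC, the product of Pycard, which gathers procaspase-1 so that it activates itself. Active caspase-1 cuts pro-IL-1β and pro-IL-18 to their active forms and frees the pore-forming end of gasdermin D, through which these cytokines leave the cell and the cell may die by pyroptosis. Caspase-11, which mouse Casp4 encodes, binds bacterial lipopolysaccharide in the cytosol and cuts gasdermin D without a classical inflammasome. In lung these proteins are best known from macrophages, monocytes and neutrophils, while gasdermin D is also made by epithelial and endothelial cells. The activity of the pathway is set largely by assembly and cleavage of proteins, which RNA levels do not measure.

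Levels are CPM, read counts scaled to a common library total, as the authors deposited them. The spacing of the lowest values puts the depth at 26000000 to 34100000 assigned reads per library, and 0 of 66 pairs of libraries were identical. Markers of lung tissue were high in every library. The surfactant gene Sftpc stood at 9790 to 12500 CPM at 0 weeks, 11800 to 13800 CPM at 2 weeks and 12100 to 18000 CPM at 5 weeks. Of the libraries, 3 stood apart on principal components in an earlier analysis of these data (replicate 2 of the controls, replicate 3 at 2 weeks and replicate 3 at 5 weeks), and differences were also computed without them. Here 2-week replicate 3 lay far out on the first component (50.9) and 5-week replicate 3 on the second (-38.1), whereas control replicate 4 (-12.9 and 24.0) lay farther out than control replicate 2 (10.2 and 16.3). Differences between groups are of mean log2(CPM + 1), fitted with limma over 15562 genes whose mean reached 1 CPM, and Benjamini-Hochberg adjustment covered all of them. All 7 inflammasome genes passed that limit, and their lowest library still held about 53 reads, for Nlrc4. In whole tissue, a lower level from fewer cells of a type and less RNA per cell cannot be told apart.

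After adjustment 0 of the 7 genes passed the threshold of 0.05 in any comparison, and 0 of 15562 genes (0.0%) passed in each of the comparisons of 5 with 0, 2 with 0 and 5 with 2 weeks. The patterns below are therefore descriptions of 12 mice, given with their intervals. Of the 7 genes, 3 had an unadjusted p under 0.05 for 5 against 0 weeks (Nlrp3, Pycard and Gsdmd, all higher), where 5.84% of all genes did so and were higher. For 2 against 0 weeks this was Gsdmd alone, higher, against 5.72% of all genes. For 5 against 2 weeks it was Nlrp3 alone, higher, against 6.18% of all genes. The mean difference was above 0 for 6 of 7 genes for 5 against 0 weeks, for 3 of 7 for 2 against 0 weeks and for 7 of 7 for 5 against 2 weeks, against 55.0%, 55.1% and 50.2% of all genes. The median log2 difference of the 7 genes was 0.31, -0.03 and 0.31 in these comparisons, and that of all genes 0.02, 0.02 and 0.00. The comparisons share groups, so these counts are not independent of each other.

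**Figure D1:**
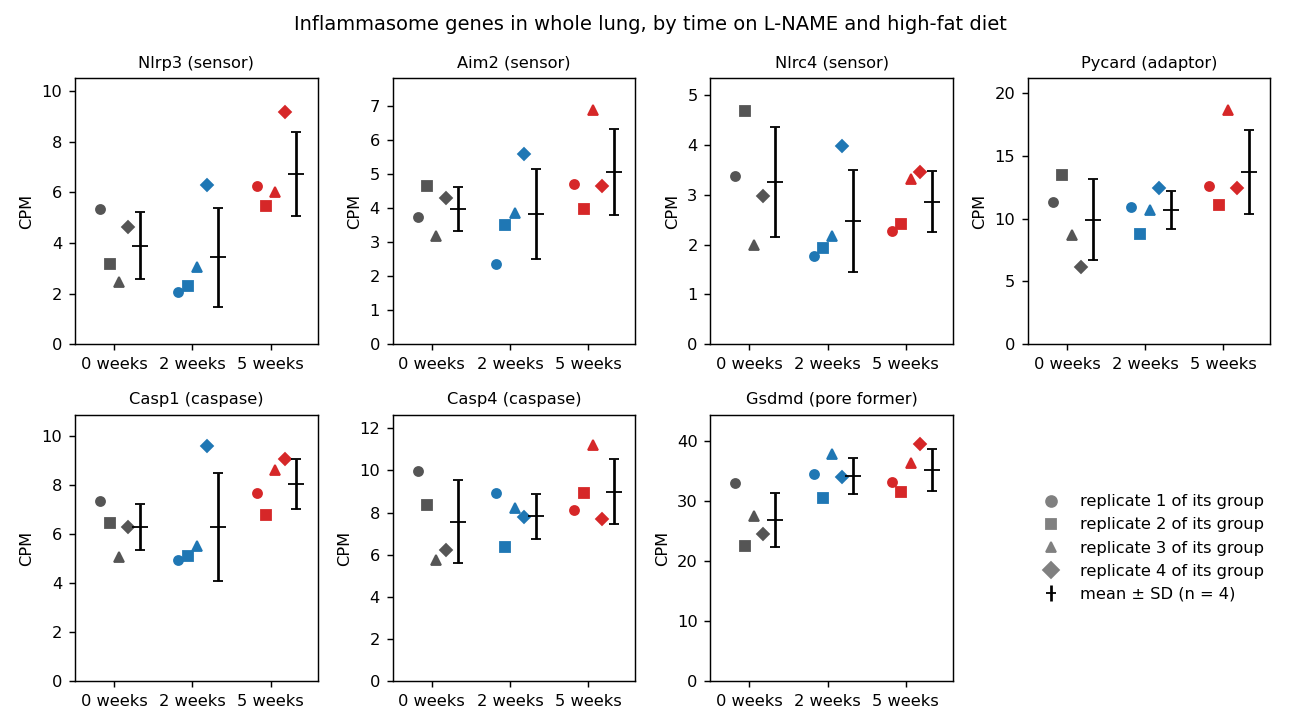
CPM of the 7 inflammasome genes in each of the 12 whole-lung libraries, with weeks of L-NAME and high-fat diet on the x axis, each symbol 1 mouse, and bars giving the mean ± SD of 4 mice. Nlrp3 lay at 5.46 to 9.17 CPM at 5 weeks, above every control library, while 2-week replicate 4 (diamond) stood above the other 2-week libraries for Nlrp3, Aim2, Nlrc4, Pycard and Casp1.

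**Figure D2:**
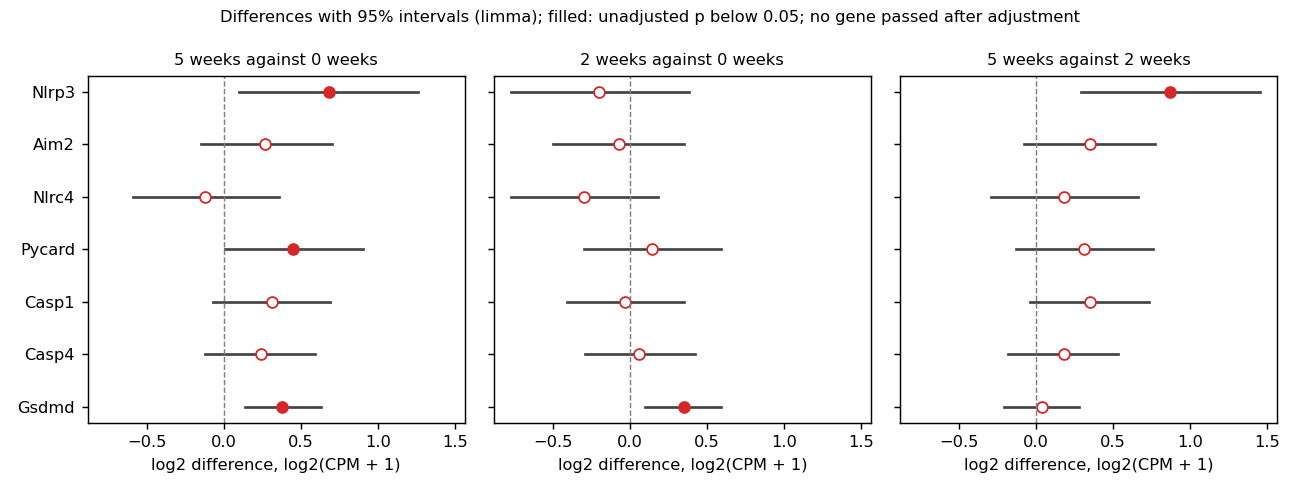
Log2 differences of the 7 genes in the 3 comparisons on the log2(CPM + 1) scale, with 95% intervals from limma, where filled points have an unadjusted p under 0.05. Gsdmd lay at 0.38 and 0.35 against the controls at 5 and 2 weeks and at 0.04 between the treated times, whereas Nlrp3 lay at 0.68 against the controls at 5 weeks and at -0.20 at 2 weeks.

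Nlrp3 encodes the sensor that responds to potassium efflux, extracellular ATP, crystals and other signs of cell stress (ENSMUSG00000032691, chromosome 11, 59432394 to 59457782, plus strand; positions of genes are those of the deposited table, which names no build). It stood at 5.34, 3.16, 2.46 and 4.64 CPM in the 4 controls, at 2.06, 2.30, 3.07 and 6.28 CPM after 2 weeks and at 6.26, 5.46, 6.03 and 9.17 CPM after 5 weeks. Every 5-week library lay above every control, and 3 of the 2-week libraries lay below the mean of the controls while the fourth was above all of them. The means were 3.90 ± 1.32 CPM at 0 weeks, 3.43 ± 1.95 CPM at 2 weeks and 6.73 ± 1.66 CPM at 5 weeks (SD, n = 4 each). At 5 weeks the mean was 1.73 times that of the controls, and no library overlapped, as held for 3.65% of all genes with the 5-week group higher. The gap was narrow, with the lowest 5-week library at 5.46 CPM and the highest control at 5.34 CPM. The exact two-sided permutation p was 0.0286, the smallest that 4 against 4 libraries allow. Limma gave a log2 difference of 0.68 ± 0.27 (SE, 95% interval 0.10 to 1.26), with an adjusted p of 0.552. Leaving out single libraries gave 0.52 to 0.81, and leaving out the 3 libraries that stand apart gave 0.65 (limma adjusted p = 0.898).

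Between the treated times Nlrp3 had its larger difference, with a 5-week mean 1.96 times the 2-week mean. The log2 difference was 0.87 ± 0.27 (SE, 95% interval 0.29 to 1.45), with an adjusted limma p of 0.29 and an exact permutation p of 0.114. All of this overlap came from 2-week replicate 4, and without it the difference was 1.14 and passed (limma adjusted p = 0.0218), as did 386 of 15563 genes (2.48%) in that fit. With library weights it also passed, at 1.06 (limma adjusted p = 0.0218), with 881 of 15562 genes (5.66%). Without 2-week replicate 1, 2 or 3 instead, it was 0.72 to 0.86 (limma adjusted p = 0.623 to 0.643), and without the 3 libraries that stand apart 0.90 (limma adjusted p = 0.657). For 2 against 0 weeks the log2 difference was -0.20 ± 0.27, and -0.46 without 2-week replicate 4, neither of which passed.

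Aim2 encodes the sensor of double-stranded DNA in the cytosol (ENSMUSG00000037860, chromosome 1, 173178445 to 173293606, plus strand). Its controls held 3.74, 4.65, 3.17 and 4.29 CPM, its 2-week libraries 2.37, 3.49, 3.84 and 5.58 CPM and its 5-week libraries 4.69, 3.98, 6.87 and 4.66 CPM. All 3 groups overlapped, although 3 of the 4 libraries at 5 weeks lay above the highest control, 2 of them barely (4.69 and 4.66 CPM, against 4.65 CPM). Such a pattern, with at least 3 of 4 above the highest control, held for 10.9% of all genes. The log2 difference was 0.27 ± 0.20 for 5 against 0 weeks and -0.07 ± 0.20 for 2 against 0 weeks (SE). Without 5-week replicate 3 the difference at 5 weeks was 0.14, and neither value passed. Aim2 overlaps Cadm3 on the opposite strand, and since the counting is not stated to use strand, reads of these 2 genes may not be separate.

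Nlrc4 forms the inflammasome that responds to flagellin and to proteins of bacterial secretion systems, which NAIP proteins detect (ENSMUSG00000039193, chromosome 17, 74732433 to 74766137, minus strand). The controls stood at 3.38, 4.69, 2.00 and 2.97 CPM, the 2-week libraries at 1.78, 1.94, 2.18 and 3.98 CPM and the 5-week libraries at 2.27, 2.41, 3.31 and 3.46 CPM. Unlike the other 6 genes it had a 5-week mean below that of the controls, 2.86 ± 0.61 CPM against 3.26 ± 1.11 CPM (SD, n = 4). The log2 difference was -0.12 ± 0.22 for 5 against 0 weeks (SE, 95% interval -0.59 to 0.36) and -0.30 ± 0.22 for 2 against 0 weeks, and neither passed. Without control replicate 2, the highest control, the difference at 5 weeks was 0.03. A processed pseudogene lies within Nlrc4 on the same strand, so that reads of the pair are uncertain.

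Promoters of Nlrp3, Casp1, Casp4 and Pycard are shown because their levels gave the most alike pair of the 7 genes (Nlrp3 with Casp1) and the pair of Pycard with Casp4, described below. The 250 bases before the start of each are given 5′ to 3′ on the strand of the gene, as RefSeq gives them on GRCm38.p6. Positions of these windows cannot be set against the gene positions of the deposited table, which names no build. Capitals mark NF-κB sites and the PU.1 core GAGGAAGT, on either strand. The windows are chr11:59541319-59541568 (plus strand) for Nlrp3, chr9:5298267-5298516 (plus) for Casp1, chr9:5308599-5308848 (plus) for Casp4 and chr7:127993868-127994117 (minus) for Pycard.
Nlrp3 promoter: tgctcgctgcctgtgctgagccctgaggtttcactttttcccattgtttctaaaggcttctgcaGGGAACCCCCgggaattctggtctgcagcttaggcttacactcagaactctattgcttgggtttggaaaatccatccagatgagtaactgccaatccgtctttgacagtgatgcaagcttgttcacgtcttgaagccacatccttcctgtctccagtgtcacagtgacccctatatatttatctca
Casp1 promoter: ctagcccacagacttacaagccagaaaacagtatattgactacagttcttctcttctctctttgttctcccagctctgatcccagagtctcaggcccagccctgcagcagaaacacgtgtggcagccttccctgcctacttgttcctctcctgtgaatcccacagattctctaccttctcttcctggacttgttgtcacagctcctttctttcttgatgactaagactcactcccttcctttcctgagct
Casp4 promoter: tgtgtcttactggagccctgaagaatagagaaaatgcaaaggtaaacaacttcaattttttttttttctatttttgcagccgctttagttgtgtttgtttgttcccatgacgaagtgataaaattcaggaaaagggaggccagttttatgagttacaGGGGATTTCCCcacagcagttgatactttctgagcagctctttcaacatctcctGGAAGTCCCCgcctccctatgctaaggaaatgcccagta
Pycard promoter: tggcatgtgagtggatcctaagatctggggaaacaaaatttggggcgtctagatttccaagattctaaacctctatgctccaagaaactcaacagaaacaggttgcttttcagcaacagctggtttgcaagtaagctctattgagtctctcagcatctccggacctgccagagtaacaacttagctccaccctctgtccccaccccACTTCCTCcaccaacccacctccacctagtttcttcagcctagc

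RefSeq gave windows for 6 of the 7 genes (Gsdmd is the other), with a second start each for Nlrp3 and Casp4. The Casp4 windows held matches to the NF-κB site in 2 runs, the first of which holds 2 overlapping placements. The Nlrp3 window shown held 1 match, and the window of the other Nlrp3 start held 0. A match was present in 7.25% of 32841 promoter windows of this length. The PU.1 core, a short sequence bound by a factor of myeloid cells, was found in the Pycard window and, among those not shown, in that of Aim2, against 2.44% of all windows. The core of the interferon-stimulated response element (2.98% of windows), the AP-1 site TGANTCA (6.75%) and the STAT site TTCNNNGAA (7.02%) had 0 matches in the windows of the 6 genes. The windows shown had 0 of these motifs in common between Nlrp3 and Casp1, or between Pycard and Casp4. These matches are letters in a window and not tested sites.

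Pycard encodes ASC, the adaptor that links sensors with a pyrin domain to caspase-1 (ENSMUSG00000030793, chromosome 7, 127588880 to 127593039, minus strand). Its level was 11.3, 13.5, 8.69 and 6.12 CPM in the controls, 10.9, 8.73, 10.7 and 12.4 CPM after 2 weeks and 12.6, 11.1, 18.6 and 12.4 CPM after 5 weeks. The groups overlapped, with 5-week replicate 3 the highest and control replicate 4 the lowest of the 12 libraries. The 5-week mean was 1.38 times that of the controls, and the log2 difference was 0.45 ± 0.21 (SE, 95% interval 0.01 to 0.90, limma adjusted p = 0.575). Without control replicate 4 the difference was 0.26, without 5-week replicate 3 it was 0.30 and with library weights 0.23. The CPM of Pycard was a whole number of read steps in 6 of 12 libraries, against 12 of 12 for each of the other 6 genes (within 0.1 of a step), and the reason was not tested. A transcript of low level, at a mean of 0.159 CPM, overlaps Pycard on the opposite strand.

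Casp1 and Casp4 lie next to each other on chromosome 9, both on the plus strand and 1.54 kb apart, with Casp12 a further 8.65 kb on. Casp1, which encodes the protease that all canonical inflammasomes activate (ENSMUSG00000025888, 5298508 to 5307290), stood at 7.37, 6.44, 5.06 and 6.28 CPM in the controls. It stood at 4.95, 5.10, 5.53 and 9.60 CPM after 2 weeks and at 7.68, 6.78, 8.62 and 9.08 CPM after 5 weeks. At 5 weeks 3 of 4 libraries lay above the highest control, and at least 3 of 4 did so for 10.9% of all genes. At 2 weeks, in contrast, 3 of 4 lay below the control mean and the fourth was the highest of all 12. The log2 difference was 0.31 ± 0.18 for 5 against 0 weeks (SE, 95% interval -0.07 to 0.69, limma adjusted p = 0.645, exact permutation p = 0.0571). For 5 against 2 weeks it was 0.35 ± 0.18, and 0.54 without 2-week replicate 4 (limma adjusted p = 0.0533). For 2 against 0 weeks it was -0.03 ± 0.18, and it turned positive, at most 0.05, without control replicate 1 or without any of 2-week replicates 1, 2 and 3.

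Casp4 encodes caspase-11, the sensor and protease of the noncanonical pathway (ENSMUSG00000033538, 5308828 to 5336783). The controls held 9.96, 8.34, 5.74 and 6.22 CPM, the 2-week libraries 8.91, 6.35, 8.22 and 7.80 CPM and the 5-week libraries 8.14, 8.94, 11.2 and 7.70 CPM. All 3 groups overlapped, with 5-week replicate 3 the highest library, and the mean at 5 weeks was 1.19 times that of the controls. The log2 difference was 0.24 ± 0.16 for 5 against 0 weeks (SE, 95% interval -0.12 to 0.59) and 0.06 ± 0.16 for 2 against 0 weeks (95% interval -0.29 to 0.42). In 2-week replicate 4, where Casp1 was highest, Casp4 stood within the range of the other 2-week libraries. Casp12, a caspase of the same cluster, lay at 18.0 to 27.3 CPM at 5 weeks and 16.2 to 21.1 CPM at 0 weeks, which also overlapped.

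Gsdmd encodes gasdermin D, the pore former that both caspases cut (ENSMUSG00000022575, chromosome 15, 75734176 to 75739257, plus strand). It stood at 33.0, 22.5, 27.5 and 24.6 CPM in the controls, at 34.5, 30.6, 37.9 and 34.0 CPM after 2 weeks and at 33.3, 31.6, 36.4 and 39.5 CPM after 5 weeks. Apart from control replicate 1, every control lay below every treated library, and 3 of 4 libraries at each treated time lay above the highest control. At least 3 of 4 above the highest control held for 12.4% of all genes at 2 weeks and for 10.9% at 5 weeks. The means were 26.9 ± 4.53 CPM at 0 weeks, 34.2 ± 2.96 CPM at 2 weeks and 35.2 ± 3.48 CPM at 5 weeks (SD, n = 4 each).

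The log2 difference of Gsdmd was 0.38 ± 0.11 for 5 against 0 weeks (SE, 95% interval 0.14 to 0.63, limma adjusted p = 0.513) and 0.35 ± 0.11 for 2 against 0 weeks (95% interval 0.10 to 0.59, limma adjusted p = 0.406). The exact permutation p was 0.0571 for each. Between the treated times the difference was 0.04 ± 0.11 (95% interval -0.21 to 0.28). Over the 3 groups the moderated F-test of limma gave an adjusted p of 0.359 for Gsdmd and of 0.381 for Nlrp3, the smallest of the 7 genes. Without control replicate 1 the differences against the controls were 0.48 and 0.45, and without the 3 libraries that stand apart 0.29 and 0.22. Both 5-week and 2-week differences use the same 4 controls, so a low or high control moves them together.

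Levels were compared between genes per kilobase of exon, with lengths from GENCODE M21, first as the union of all exons of a gene. Gsdmd was the most abundant of the 7 in 12 of 12 libraries, at 11.3 CPM per kb at 0 weeks, 14.4 CPM per kb at 2 weeks and 14.8 CPM per kb at 5 weeks. Casp1 was the next in 12 of 12 libraries, with a mean over all libraries of 4.59 CPM per kb. Pycard followed at 3.01 and Casp4 at 2.19 CPM per kb, and this pair changed places in 1 of 12 libraries. Aim2 at 1.22 and Nlrp3 at 1.15 CPM per kb did not keep an order, with Aim2 higher in 8 of 12 libraries, although Nlrp3 was the higher in 1 of 4 libraries at 0 weeks, 0 of 4 at 2 weeks and 3 of 4 at 5 weeks. Nlrc4 was the lowest in 11 of 12 libraries, at 0.595 CPM per kb. Per length of the principal transcript, an alternative added after seeing the data, Gsdmd was again the first in 12 of 12 libraries (17.9 CPM per kb) and Nlrc4 the last in 11 of 12 (0.605 CPM per kb). The order of the caspases and Pycard depended on the length used. So did that of Nlrp3 and Aim2, since Nlrp3 was the higher in 4 of 12 libraries per union of exons and in 2 of 12 per principal transcript. The counts of Nlrp3 above Aim2 by weeks therefore hold for the first length only. Casp4, at 5.66 CPM per kb over 1435 bases in place of 3710, then lay above Casp1 in 10 of 12 libraries and above Pycard in 12 of 12. For Pycard both lengths are 3800 bases, nearly all of the 4160 bases that the gene spans.

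Of the 21 pairs of the 7 genes, 5 had a Pearson's r of at least 0.7 on the log2(CPM + 1) scale over 12 libraries, and r ranged from -0.22 (Nlrc4 with Gsdmd) to 0.93 (Nlrp3 with Casp1), with a median of 0.44. For Nlrp3 and Casp1 Spearman's rho was 0.97, r within groups 0.92 and r without the 2 libraries farthest from the median of Nlrp3 0.89. Aim2 and Casp1 had r = 0.82, and Nlrc4 and Casp1 r = 0.70, which was 0.85 within groups. Pycard and Casp4 had r = 0.80 (rho 0.59, within groups 0.75). The neighbours Casp1 and Casp4 had r = 0.44 and within groups 0.29, and Gsdmd had r = 0.36 with Casp1 and 0.39 with Nlrp3. Without the 3 libraries that stand apart, chosen after seeing the data as a check on pairs, 8 of 21 pairs reached 0.7 over 9 libraries, with a median r of 0.53. The 6 pairs among Nlrp3, Aim2, Nlrc4 and Casp1 then had r of 0.77 to 0.94, against 0.54 to 0.93 over all 12 libraries, and Pycard with Gsdmd had r = 0.90, against 0.44. These correlations describe 12 mice that share tissue make-up and group, and no p is attached.

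**Figure D3:**
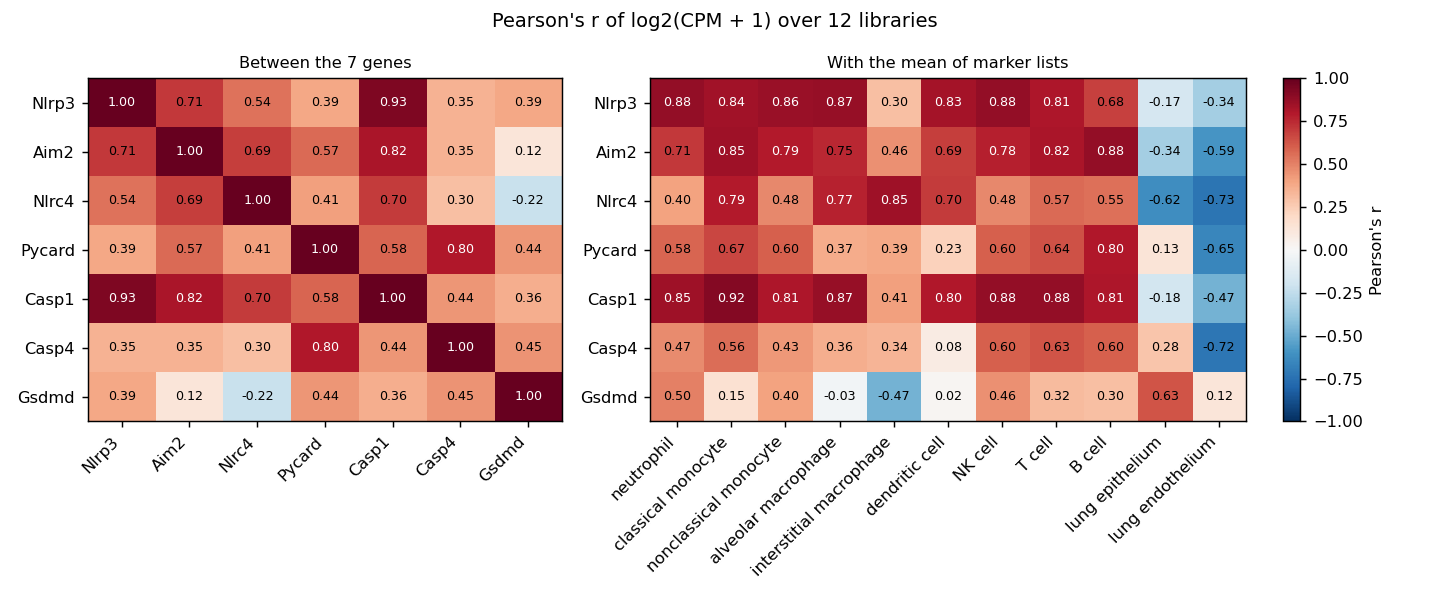
Pearson's r of log2(CPM + 1) over the 12 libraries between the 7 genes (left) and between each gene and the mean of marker lists (right), from -1 in blue to 1 in red. Casp1 and Nlrp3 reached 0.93 with each other and 0.81 to 0.92 with monocyte, neutrophil and alveolar macrophage markers, while Gsdmd lay between -0.03 and 0.50 with those lists.

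Genes most like each member were sought among up to 11994 named genes whose mean reached 5 CPM. For Nlrp3 they were Myo1f, an unconventional myosin (r = 0.96), and Fpr2, a formyl peptide receptor (r = 0.95). Fpr2 was also the nearest to Casp1 (r = 0.97), followed by Fgd3 (r = 0.96). Aim2 was nearest to Lpxn and Slc28a2 (r = 0.94 each), and Nlrc4 to Ifi204, a gene of the interferon-inducible p200 family, and Man1a (r = 0.91 each). Pycard was nearest to Akr1b3 and Taldo1 (r = 0.97 each), Casp4 to Ddx1 (r = 0.94) and Gtf3c6 (r = 0.88), and Gsdmd to Tmem230 (r = 0.89) and Slc7a4 (r = 0.87). The lists of the nearest genes therefore had 1 name in common, Fpr2 for Nlrp3 and Casp1. These r were picked as the highest of up to 11994 over 12 libraries, so high values are partly the result of the search. Without the 2 libraries farthest from the median of the member, r was 0.65 for Slc7a4 with Gsdmd and 0.79 for Gtf3c6 with Casp4. For the others it was 0.80 to 0.96.

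Markers of blood and tissue leukocytes moved with several of these genes. The likeness was not particular to 1 kind of leukocyte. Casp1 had r = 0.92 with the mean of 8 classical monocyte markers, 0.87 with 11 alveolar macrophage markers and 0.85 with 11 neutrophil markers, and these were 0.91, 0.89 and 0.80 within groups. Casp1 also had r = 0.88 with T cell, 0.88 with NK cell, 0.81 with B cell and 0.80 with dendritic cell markers, but 0.41 with interstitial macrophage markers. Nlrp3 had r = 0.84, 0.87 and 0.88 with the classical monocyte, alveolar macrophage and neutrophil lists, 0.88 with NK cell, 0.81 with T cell and 0.30 with interstitial macrophage markers. For both genes r with the interstitial macrophage list depended on few libraries. Without the 2 libraries farthest from the median of that list it was 0.70 for Nlrp3 and 0.69 for Casp1. Spearman's rho over all libraries was 0.58 for Nlrp3 and 0.66 for Casp1. Nlrc4 had r = 0.85 with that list and 0.83 within groups. The monocyte and alveolar macrophage lists share Chil3, and without it Casp1 had r = 0.91 and Nlrp3 r = 0.82 with the monocyte markers. Gsdmd had r = 0.15 with classical monocyte, -0.03 with alveolar macrophage, 0.50 with neutrophil and 0.63 with lung epithelial markers. Without the 2 libraries farthest from the median of the list, r was 0.25 with neutrophil and 0.32 with epithelial markers. Within groups these were 0.65 and 0.52, and rho with the epithelial markers was 0.31. Casp4 had r = 0.56, 0.36 and 0.47 with the monocyte, alveolar macrophage and neutrophil lists.

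**Figure D4:**
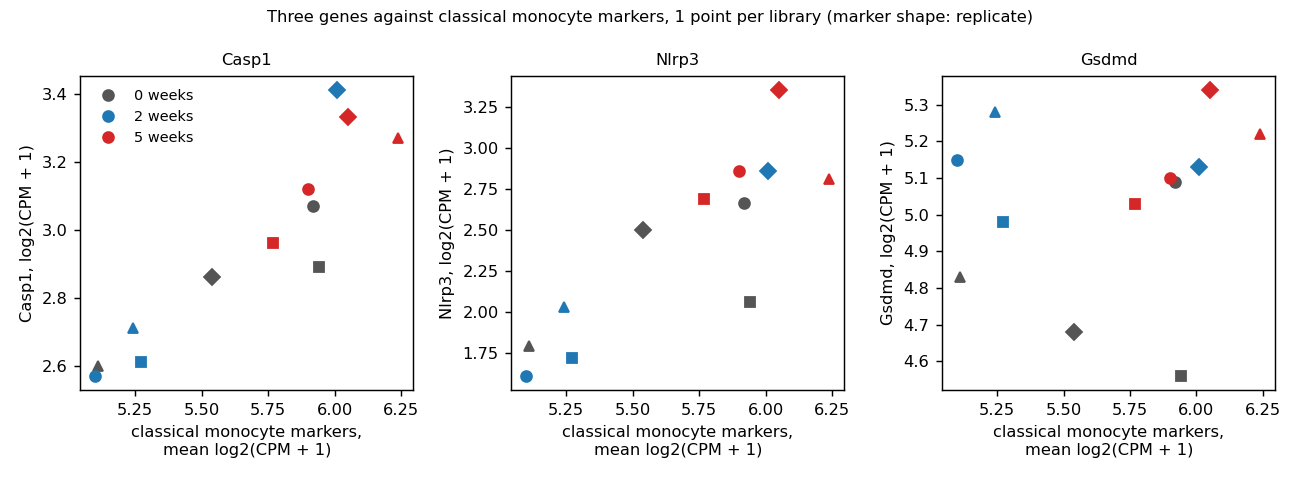
Casp1, Nlrp3 and Gsdmd against the mean of 8 classical monocyte markers, both as log2(CPM + 1), with 1 point per library, colour for weeks of treatment and shape for replicate. Control replicate 3 and 2-week replicates 1 to 3 lie at the low end of Casp1 and of the markers and 2-week replicate 4 at the high end (r = 0.92 for Casp1), whereas Gsdmd shows no such order (r = 0.15).

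The same libraries stood at the ends for genes and markers. Within its group, 2-week replicate 4 was the highest for 5 of 7 genes (Nlrp3, Aim2, Nlrc4, Pycard and Casp1), and its alveolar macrophage markers summed to 952 CPM, against 461 to 523 CPM in the other 2-week libraries. Its classical monocyte markers without Chil3 summed to 661 CPM, against 438 to 464 CPM. Chil3 made up 43.1% of the full monocyte sum in this library, the highest of the 25.8% to 43.1% at 2 weeks. The alveolar macrophage sums given here include Chil3 and were not computed without it. Neutrophil markers summed to 269 CPM in this library, against 154 to 179 CPM in the other 2-week libraries. B cell markers were at 240 CPM, against 112 to 125 CPM, and NK cell markers at 73.6 CPM, against 30.6 to 43.2 CPM. Control replicate 3 was the lowest control for 5 of 7 genes (Nlrp3, Aim2, Nlrc4, Casp1 and Casp4), with alveolar macrophage markers at 492 CPM, against 843 to 948 CPM in the other controls. Its neutrophil markers, at 199.9 CPM, lay within the 159 to 299 CPM of the other controls.

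By group, the 12 neutrophil markers summed to 159 to 299 CPM at 0 weeks, 154 to 269 CPM at 2 weeks and 244 to 492 CPM at 5 weeks. Of the 11 tested, 11 were higher for 5 against 0 weeks and 0 passed. The defining marker S100a8 stood at 24.1 to 89.7 CPM at 5 weeks and 10.4 to 42.3 CPM at 0 weeks, and Ly6g was at or under 0.557 CPM in every library and listed at 0 in at least 1 library at 2 weeks. Classical monocyte markers summed to 612 to 1210 CPM at 0 weeks, 617 to 1160 CPM at 2 weeks and 1010 to 1190 CPM at 5 weeks. Alveolar macrophage markers summed to 492 to 948 CPM at 0 weeks, 461 to 952 CPM at 2 weeks and 806 to 1020 CPM at 5 weeks. Ccr2, a monocyte receptor, stood at 52.7 to 96.4 CPM at 5 weeks and 37.6 to 68.8 CPM at 0 weeks. B cell markers summed to 101 to 176 CPM at 0 weeks, 112 to 240 CPM at 2 weeks and 191 to 394 CPM at 5 weeks, and they had r = 0.88 with Aim2 and 0.80 with Pycard. NK cell markers summed to 30.5 to 55.2 CPM at 0 weeks and 30.6 to 73.6 CPM at 2 weeks. At 5 weeks they summed to 61.4 to 101 CPM. For the NK cell and the B cell sums the 5-week and control libraries did not overlap. Of single genes, 3.65% did not overlap with the 5-week group higher, and no such share was computed for sums. T cell markers summed to 27.5 to 48.1 CPM at 0 weeks, 27.6 to 48.4 CPM at 2 weeks and 40.5 to 64.9 CPM at 5 weeks, and dendritic cell markers to 519 to 614 CPM at 0 weeks, 447 to 630 CPM at 2 weeks and 610 to 760 CPM at 5 weeks. Red cell markers summed to 1240 to 2600 CPM at 0 weeks, 1080 to 2490 CPM at 2 weeks and 1510 to 16200 CPM at 5 weeks, the highest in 5-week replicate 3, and 6 of 6 were higher for 5 against 0 weeks with a median log2 difference of 1.45. Not every leukocyte list had higher sums at 5 weeks. Interstitial macrophage markers summed to 2640 to 3330 CPM at 0 weeks and 2610 to 3190 CPM at 5 weeks. Of these 12 markers, 8 were lower for 5 against 0 weeks (median log2 difference -0.27) and 10 for 2 against 0 weeks (median -0.46). Nonclassical monocyte markers summed to 1610 to 1880 CPM at 0 weeks and 1380 to 1860 CPM at 5 weeks, although 6 of 8 were higher (median 0.66). Endothelial markers had r = -0.72 with Casp4 and -0.73 with Nlrc4. Among the markers of all these cell types 0 of those tested passed in any comparison, and the part of these cell types in the differences above was not tested.

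Among the cytokines that caspase-1 matures, Il1b averaged 11.8 ± 4.28 CPM at 0 weeks, 9.64 ± 6.04 CPM at 2 weeks and 28.3 ± 11.7 CPM at 5 weeks (SD, n = 4 each). Its log2 difference was 1.14 ± 0.39 for 5 against 0 weeks (SE, limma adjusted p = 0.521) and 1.51 ± 0.39 for 5 against 2 weeks (limma adjusted p = 0.288). Without 2-week replicate 4 the second was 1.85 and passed (limma adjusted p = 0.0208), where 2.48% of all genes passed. Without 2-week replicate 1, 2 or 3 instead it was 1.23 to 1.49 (limma adjusted p = 0.623 to 0.643). It was 1.34 without the 3 libraries that stand apart (limma adjusted p = 0.657). With library weights it was 1.6 and passed (limma adjusted p = 0.0229), where 5.66% of all genes passed. Il18 averaged 5.09 ± 1.12 CPM at 0 weeks, 4.75 ± 1.72 CPM at 2 weeks and 6.28 ± 1.57 CPM at 5 weeks. Across libraries Il1b had r = 0.88 with Nlrp3 and 0.85 with Casp1, and Il18 had r = 0.88 with Casp1. With the neutrophil markers Il1b had a higher r, 0.97. Within groups Il1b had r = 0.94 with the neutrophil markers, 0.75 with Nlrp3 and 0.80 with Casp1.

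Among 11 other sensors in the table, 8 could be tested and 0 passed. For 5 against 0 weeks 7 of 8 were higher, with a median log2 difference of 0.27, and for 2 against 0 weeks 2 of 8 were, with a median of -0.14. The shares of all genes that were higher were 55.0% and 55.1%. Naip2, which detects the rod protein of bacterial secretion systems and acts through Nlrc4, averaged 11.4 ± 1.04 CPM at 5 weeks and 6.88 ± 2.81 CPM at 2 weeks (SD, n = 4). Its log2 difference for 5 against 2 weeks was 0.71 ± 0.24 (SE), and without 2-week replicate 4 it was 0.94 and passed (limma adjusted p = 0.0385), in the fit where 2.48% of all genes did. Without 2-week replicate 1, 2 or 3 instead it was 0.63 to 0.65 (limma adjusted p = 0.632 to 0.693). Without the 3 libraries that stand apart it was 0.65 (limma adjusted p = 0.657). With library weights it was 0.84 and passed (limma adjusted p = 0.0223), where 5.66% of all genes passed. Mefv, which encodes the sensor pyrin, stood at 0.62 ± 0.21 and Nlrp12 at 0.84 ± 0.30 in the same comparison (log2, SE), at levels of 0.561 to 5.16 CPM in the 5-week and 2-week libraries. The Naip genes are closely related copies of each other, so the split of reads between them is uncertain.

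Of 15 activators and regulators 0 passed, with 12 of 15 higher for 5 against 0 weeks (median 0.13) and 8 of 15 for 2 against 0 weeks (median 0.00). The shares of all genes that were higher were 55.0% and 55.1%. Pstpip1, whose product binds pyrin, averaged 11.4 ± 3.60 CPM at 5 weeks and 7.28 ± 0.815 CPM at 0 weeks (SD, n = 4), a log2 difference of 0.55 ± 0.16. Irf8, a transcription factor of monocytes and macrophages that drives Naip genes, averaged 70.7 ± 2.77 CPM at 5 weeks and 58.0 ± 9.90 CPM at 2 weeks. Its log2 difference was 0.29 ± 0.10, and without 2-week replicate 4 it was 0.41 and passed (limma adjusted p = 0.0193), again with 2.48% of all genes. Without 2-week replicate 1, 2 or 3 instead it was 0.25 to 0.26 (limma adjusted p = 0.632 to 0.707). Without the 3 libraries that stand apart it was 0.23 (limma adjusted p = 0.681). With library weights it was 0.34 and passed (limma adjusted p = 0.0237), where 5.66% of all genes passed. The channel gene Panx1 stood at 0.30 ± 0.12 for 5 against 2 weeks.

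Genes that restrain the pathway or repair gasdermin pores gave 0 of 5 past the threshold. Serpinb1a, an inhibitor of inflammatory caspases, averaged 31.0 ± 7.35 CPM at 5 weeks and 22.0 ± 6.04 CPM at 2 weeks (SD, n = 4), a log2 difference of 0.48 ± 0.17 that was 0.65 and passed without 2-week replicate 4 (limma adjusted p = 0.0407), where 2.48% of all genes passed. Without 2-week replicate 1, 2 or 3 instead it was 0.40 to 0.47 (limma adjusted p = 0.645 to 0.698). Without the 3 libraries that stand apart it was 0.33 (limma adjusted p = 0.699). With library weights it was 0.46 and passed (limma adjusted p = 0.0422), where 5.66% of all genes passed. The ESCRT-III genes Chmp3 and Chmp4b, whose products shed damaged membrane, stood at 0.12 ± 0.07 for 2 against 0 weeks and at 0.11 ± 0.08 for 5 against 0 weeks. Of 9 other genes of cell death 0 passed, with 4 higher and 5 lower for 5 against 0 weeks and a median of -0.01. In that comparison 55.0% of all genes were higher. Ripk1, a kinase of necroptosis and inflammation, averaged 47.3 ± 6.43 CPM at 2 weeks and 58.3 ± 8.53 CPM at 0 weeks, and Casp8, its partner protease, 36.2 ± 4.91 CPM at 2 weeks and 31.3 ± 1.08 CPM at 0 weeks (SD, n = 4). Ninj1, which ruptures the plasma membrane after gasdermin pores form, stood at -0.22 ± 0.12 for 2 against 0 weeks (log2, SE).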

How the data were processed

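Whole-lung RNA of 12 mice, 4 per group, was measured. The authors deposited CPM values with 0.0001 added to every cell. Per the submitters' processing notes, TopHat2 and Partek were used with mm10, and the annotation, strand setting and filters were not given in the sources used here. Gene starts matched GENCODE M21 on GRCm38 for 501 of 23073 genes, so gene positions are printed as deposited, with the end as the stop minus 1. The low values lay on whole multiples of 1 read step (within 0.1) for 87.5% to 88.4% of values from 1 to 20 steps, too few to recover counts, so no count model was fitted. Values were analysed as log2(CPM + 1), where the pseudocount understates changes of low genes, for 15562 genes whose mean reached 1 CPM. Limma 3.58.1 in R 4.3.3 fitted 3 group means over 12 libraries with a variance trend, two-sided, Benjamini-Hochberg adjusted, and its code was tested on simulated data. Exact permutation tests used all 70 splits of 4 against 4. Replicates were numbered within groups in accession order, and p-values measure the spread between these mice. Python 3.11.15, scipy 1.17.1 and matplotlib 3.10.9 served for descriptions and plots.

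The 7 genes, the marker and pathway lists and the tests were chosen with earlier results of these data known. From each pathway list without a passing gene the 3 with the smallest unadjusted p in any comparison are named, and for each of the 7 genes the 2 most correlated genes, predicted genes left out. The monocyte list without Chil3 was added after seeing the data. Trim31, Gsdma, Gsdma2, Gsdma3, Gsdmc and Siglec5 of these lists were not analysed here. The alternatives tried were pseudocounts of 0.1 and 5, other filters, quantile and median-of-ratios scaling, weights per library, robust moderation, fits of the groups compared, and leaving out libraries.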

Additional observations from a re-analysis of the deposited data

Results flagged for a closer look

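Casp1 in 2-week replicate 4 stood far from the other libraries of its group. At 9.60 CPM, against 4.95 to 5.53 CPM in the other 2-week libraries, its gap to the nearest of them was 0.875 of the range of the group, above Dixon's critical value for 4 libraries. It was the only 1 of 21 combinations of gene and group to pass that limit, and chance alone passes about 1 in 20. Nlrc4 in the same library reached 0.819 and Nlrp3 0.759, both under the limit.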

How the results depend on the processing

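Over 22 alternatives the 21 differences of the 7 genes gave 447 values, of which 431 kept their direction and their side of the threshold, 2 newly passed (Nlrp3 for 5 against 2 weeks) and 14 turned in sign. A filter of 10 CPM left Pycard and Gsdmd only, so 15 values were not run. Differences that turned belong to means close to each other. With library weights the 2-week difference was -0.02 for Pycard and -0.06 for Casp4. Without the 3 libraries that stand apart it was 0.02 for Casp1 and 0.02 for Il18. Leaving out each library in turn gave, for 2 against 0 weeks, -0.24 to 0.08 (Aim2), -0.05 to 0.30 (Pycard), -0.23 to 0.05 (Casp1) and -0.04 to 0.19 (Casp4), for 5 against 0 weeks -0.27 to 0.03 (Nlrc4) and for 5 against 2 weeks -0.02 to 0.09 (Gsdmd). With a pseudocount of 5 the Nlrp3 differences were 0.40 for 5 against 0 weeks and 0.49 for 5 against 2 weeks, since a larger pseudocount shrinks low genes.

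Library weights passed 18 genes for 2 against 0 weeks and 881 for 5 against 2 weeks, 1 of them among the 7 (Nlrp3). Leaving out single libraries passed 0 to 1 genes for 5 against 0 weeks, 0 to 24 for 2 against 0 weeks (24 without 5-week replicate 3) and 0 to 386 for 5 against 2 weeks (386 without 2-week replicate 4), with 0 to 1 of the 7 in the last. The causes were not tested. At an unadjusted p under 0.05 limma gave 1343 genes for 5 against 0 weeks (877 without the 3 libraries that stand apart, 880 with a filter of 10 CPM), 1438 for 2 against 0 weeks (943 to 2283 when single libraries were left out, 2466 with library weights) and 1696 for 5 against 2 weeks (1077 to 2583, and 3842 with library weights). No paired analysis was possible because the labels give no replicate numbers that groups share. Counting error has no interval here, since counts were not recovered.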
